A study of Mus musculus with 22 samples.

Results

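The C/EBP family was examined at the chromatin of its own genes, in maps of H3K27ac, the acetylation of histone H3 that is found on promoters and enhancers in use. The 6 genes were Cebpa, Cebpb, Cebpd, Cebpe, Cebpg and Cebpz, out of 21938 protein-coding genes annotated on the chromosomes analysed, and every H3K27ac peak over a gene body or within 50 kb of it was taken. Peaks in these windows numbered 23 of 23410 in replicate 1, 37 of 25963 in replicate 2 and 35 of 23758 in replicate 3. Merged across the libraries, they formed 40 of the 34595 regions in all. The cells were KL cells, bone marrow myeloid progenitors sorted as lineage-negative, cKit-positive and Sca1-negative. They came from male C57BL/6 mice of the genotype scl-Cre-ERT +; Bcorfl/y, in which tamoxifen at 1 mg per day for 5 days, given at an age of 3 to 6 months, deletes part of the transcriptional repressor Bcor (BcorΔE9-10), and were collected 20 weeks later. The Cre recombinase is driven by a stem cell enhancer and is active only with tamoxifen. Progenitors therefore carry the deletion when they descend from a recombined stem cell. The series lists 22 samples, of which the 3 H3K27ac libraries of BcorΔE9-10 KL cells were used. The H3K27ac mark was not analysed here in BcorWT cells, so each comparison is between genes or regions within these 3 libraries.

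C/EBP proteins are transcription factors of the basic leucine zipper (bZIP) class, which bind DNA as dimers with one another or with related zipper proteins. C/EBPα drives the step from multipotent to granulocyte and monocyte progenitors, C/EBPβ takes over when demand for granulocytes is high, and C/EBPε is needed for the late granule genes of maturing neutrophils. C/EBPδ is an acute-phase relative, and C/EBPγ lacks a strong activation domain and dimerises with the others and with ATF4. Cebpz shares the name but belongs to a separate family of nuclear proteins and has no leucine zipper. In mouse marrow, Cebpa is known to depend on an enhancer 37 kb downstream of its transcription start site (TSS), which binds other myeloid regulators.

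The sequences at the heart of these loci are shown first, because the peaks described below sit on or next to them. RefSeq promoter sequences (GRCm38) matched 3 of the 6 genes, Cebpa, Cebpb and Cebpg, and the entries for Cebpd, Cebpe and Cebpz were missing. The 250 bases before the start site lie at chr7:35119043-35119292 on the plus strand for Cebpa, at chr2:167688665-167688914 on the plus strand for Cebpb and at chr7:35056567-35056816 on the minus strand for Cebpg. Capitals mark matches on either strand to 8 motifs. The C/EBP motif was searched as TTGCNNAA. For the myeloid factor PU.1 the letters were GAGGAAG. RUNX factors were represented by the letters TGTGGT. The GATA factors were represented by AGATAA. The motif of the CREB and ATF proteins was written TGACGT. That of NF-Y, a general promoter factor, was written CCAAT. The TATA box, as TATAAA, and the GC box, which was searched as GGGCGG, were added after the sequences had been read.
Cebpa: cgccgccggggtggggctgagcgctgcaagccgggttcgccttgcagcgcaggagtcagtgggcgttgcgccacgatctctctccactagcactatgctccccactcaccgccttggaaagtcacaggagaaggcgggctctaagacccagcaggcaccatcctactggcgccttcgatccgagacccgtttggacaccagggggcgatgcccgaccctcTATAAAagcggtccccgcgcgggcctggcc
Cebpb: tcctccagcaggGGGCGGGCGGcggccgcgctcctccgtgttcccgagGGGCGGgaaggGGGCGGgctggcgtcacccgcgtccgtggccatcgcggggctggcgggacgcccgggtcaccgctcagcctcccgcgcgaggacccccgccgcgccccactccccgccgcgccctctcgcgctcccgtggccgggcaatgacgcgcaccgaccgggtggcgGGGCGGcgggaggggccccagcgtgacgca
Cebpg: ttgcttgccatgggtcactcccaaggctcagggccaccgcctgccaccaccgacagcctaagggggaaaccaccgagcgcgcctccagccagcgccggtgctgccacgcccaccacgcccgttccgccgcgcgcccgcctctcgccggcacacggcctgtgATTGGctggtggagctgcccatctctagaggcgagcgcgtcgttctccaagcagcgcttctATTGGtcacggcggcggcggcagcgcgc
The 3 promoters carried different letters. Cebpa held a TATA box at 30 to 25 bases before the start and no other match, and 12.4% of the 32841 RefSeq promoter windows held that motif. Cebpb held 5 GC boxes, which overlap one another in 1 place, against 32.7% of promoters with at least 1. Cebpg held 2 inverted NF-Y boxes, whereas 33.9% of promoters held at least 1. None of the 3 windows held the C/EBP motif, which 9.57% of promoters did. All 3 were rich in G and C, at 66.4% for Cebpa, 81.6% for Cebpb and 70.8% for Cebpg, against a median of 52.4% over all promoters.

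Among the 6 genes, only Cebpb had distal H3K27ac regions found in all 3 libraries. Distal means more than 2.5 kb from every annotated TSS, and 3 of the 5 such regions, those with the highest mean fold, are printed as 200 bases around the summit on the plus strand. The region at −32.0 kb from the Cebpb TSS is centred in chr2:167656792-167656991, that at −32.4 kb in chr2:167656374-167656573 and that at +9.4 kb in chr2:167698173-167698372 (GRCm38). Capitals mark the same 8 motifs.
−32.0 kb: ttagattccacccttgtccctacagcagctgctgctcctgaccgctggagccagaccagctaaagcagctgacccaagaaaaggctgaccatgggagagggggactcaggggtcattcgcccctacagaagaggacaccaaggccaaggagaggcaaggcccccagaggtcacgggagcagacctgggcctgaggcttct
−32.4 kb: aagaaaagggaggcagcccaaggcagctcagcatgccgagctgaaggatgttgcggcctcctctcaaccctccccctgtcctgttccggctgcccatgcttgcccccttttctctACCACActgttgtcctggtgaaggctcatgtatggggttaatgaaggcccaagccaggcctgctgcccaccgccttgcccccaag
+9.4 kb: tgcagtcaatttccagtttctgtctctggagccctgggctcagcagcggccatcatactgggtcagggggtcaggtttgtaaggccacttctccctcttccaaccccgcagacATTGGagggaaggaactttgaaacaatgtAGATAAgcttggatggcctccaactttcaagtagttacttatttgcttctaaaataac
The window at −32.0 kb held none of the motifs. An inverted RUNX match lay in the window at −32.4 kb, and 15.5% of the 2460 distal regions found in all 3 libraries held this motif in a window of the same length. The window at +9.4 kb held a GATA match (6.50% of distal regions) and an inverted NF-Y match (16.5%). A match is a string of letters and does not show binding.

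The 3 libraries had 18.0, 18.9 and 19.3 M reads as recovered from the peak lists, and the weakest summits in the 3 lists had 8, 8 and 9 fragments, and acetylation below that level does not appear. Median fold enrichment over all peaks was 4.92, 4.72 and 5.53, with replicate 3 the highest. As a check of the cell label, peaks near the TSS were found in every library for 7 of 7 genes of early progenitors, among them Kit and Spi1. The share over all protein-coding genes was 43.9%, and the difference was not tested. Of the other marker genes, 0 of 5 erythroid, 0 of 5 lymphoid, 0 of 6 mature myeloid and 0 of 5 non-blood genes had a TSS peak in all 3. In 1 or 2 libraries, 2, 1, 1 and 0 of them had one, among them Klf1, with folds of 5.29 and 6.07 in replicates 1 and 3. The paper lists Gata1, one of the 5 erythroid genes, as differentially expressed in KL cells. The erythroid count is therefore no check of the cell label. A higher level of acetylation in each cell and a larger share of cells with the mark cannot be told apart in these bulk libraries.

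H3K27ac peaks were found near the TSS of every family member in each library. A peak within 2.5 kb of a TSS of the gene was found in all 3 libraries for 6 of 6 members, against 43.9% of protein-coding genes (9637 of 21938). The members differed in how strongly they were marked. Fold enrichment at the TSS was that of the highest summit, as given by the authors' peak caller. It is the ratio of fragments to local background, with the same small constant added to both. It ranged from 17.6 ± 3.41 (SD, n = 3) at Cebpg to 5.19 ± 0.973 at Cebpe. The median of the 6 means was 10.8, close to the 10.2 over all 9637 genes with a TSS peak in every library (quartiles 6.996 and 14.9).

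Cebpg, the dimerising partner without a strong activation domain, had the highest mean TSS fold. Its values were 21.0, 14.2 and 17.7 in replicates 1, 2 and 3, above the upper quartile of genes in each library (13.99, 13.8 and 15.9). The mean lay at the 84.4th percentile of the 9637 genes. Cebpg lies on chromosome 7 (chr7:35046422-35056573, minus strand, ENSMUSG00000056216.9), and the strongest summit fell 213, 196 and 177 bp inside the gene, over an exon. An antisense transcript, Gm45095, starts 546 bp inside Cebpg, and the peak cannot be assigned to one of the 2 start sites.

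Cebpb, the factor of emergency granulopoiesis, was marked about as strongly and more widely. Its TSS fold was 14.0, 14.2 and 19.5, a mean of 15.9 ± 3.12 (SD, n = 3) at the 78.9th percentile, with replicate 3 above the other two. Cebpb is a gene of a single exon (chr2:167688915-167690418, plus strand, ENSMUSG00000056501.3), and H3K27ac peaks covered 80.6%, 81.5% and 81.8% of it. The TSS of Tmem189, which runs the opposite way, lies 907 bp downstream inside Cebpb, and that of the long non-coding RNA A530013C23Rik lies 2262 bp downstream, and the fold cannot be assigned to one of these 3 start sites.

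Cebpz, the member outside the bZIP class, had fold values of 16.1, 8.60 and 16.3 (13.7 ± 4.38, SD, n = 3; 69.8th percentile), with replicate 2 well below the others. At the same summits it had 61, 42 and 82 fragments over a local background of 2.86, 4.0 and 4.0. The TSS of Ndufaf7, a mitochondrial assembly factor gene, lies 70 bp upstream on the other strand. Cebpz (chr17:78919006-78937066, minus strand, ENSMUSG00000024081.9) and Ndufaf7 thus share 1 promoter. The fold comes from the peak on the Cebpz side, with summits 222, 246 and 236 bp inside Cebpz. Within 2.5 kb of both start sites, that peak is counted for both genes.

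Cebpa, the factor that commits cells to the granulocyte and monocyte lineage, was in the lower part of the distribution. Its TSS fold was 6.83, 8.93 and 8.13, a mean of 7.96 ± 1.06 (SD, n = 3) at the 32.97th percentile of genes with a TSS peak. All 3 values were below the median of genes in the same library, which was 9.07, 9.26 and 10.7. These values rest on 19, 26 and 24 fragments, with exact Poisson intervals of 11.4 to 29.7, 17.0 to 38.1 and 15.4 to 35.7. Cebpa (chr7:35119293-35121928, plus strand, ENSMUSG00000034957.10) has an antisense transcript, Gm45091, starting 312 bp downstream of its own TSS, and the main peak spans that site as well.

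Cebpd, the acute-phase member, followed with a fold of 7.48, 7.29 and 6.39 (7.05 ± 0.583, SD, n = 3; 25.5th percentile), the smallest spread between libraries in the family. Cebpd (chr16:15887286-15891031, plus strand, ENSMUSG00000071637.5) had no other gene's TSS within 2.5 kb. Cebpe, the factor of late neutrophil maturation, was lowest with 4.10, 5.95 and 5.53 (5.19 ± 0.973, SD, n = 3; 8.64th percentile), again with all values below the median of genes. Its gene (chr14:54710360-54712174, minus strand, ENSMUSG00000052435.7) was marked on 11, 17 and 16 fragments.

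**Figure D1:**
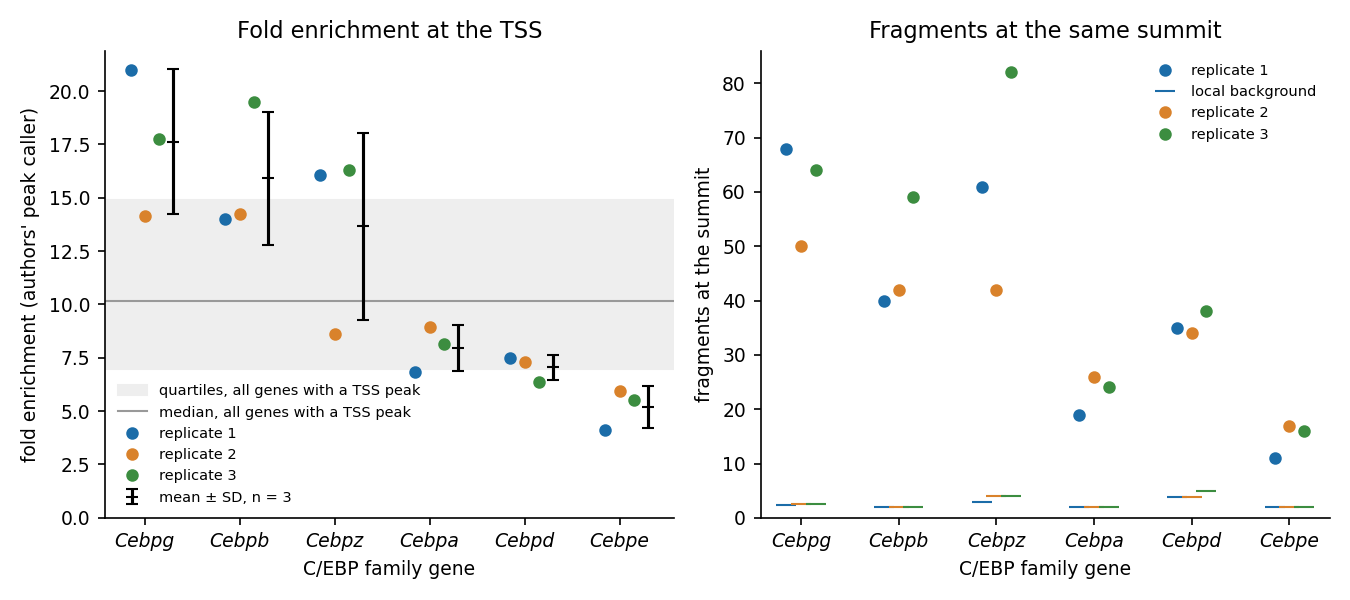
Left, fold enrichment at the TSS of each C/EBP family gene (y axis, linear) in replicates 1 to 3 (points) with the mean ± SD (bars, n = 3); the grey band and line give the quartiles and median of all 9637 genes with a TSS peak in every library. Right, fragments at the same summit, with short lines for the local background in each library. Cebpg, Cebpb and Cebpz have means above the median of genes and Cebpa, Cebpd and Cebpe below it, while Cebpd has more fragments than Cebpa in each library.

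Neighbours in this order were then compared within libraries, with 5 pairs tested by the exact sign-flip permutation test, two-sided. Its smallest possible p with 3 libraries is 0.25. The order came from the same values, so the pairs and the direction of each ratio were not chosen independently of them. Cebpd and Cebpe were the only neighbouring pair whose values did not overlap, with a mean log2 ratio of 0.46 ± 0.36 (SD, n = 3), higher at Cebpd in 3 of 3 libraries (exact p = 0.25, adjusted over the 5 pairs 0.625). Cebpg exceeded Cebpb in 1 of 3 libraries (log2 ratio 0.15 ± 0.38, exact p = 1), so the order of the strongest pair is not fixed by these data. Cebpz over Cebpa gave the largest mean log2 ratio, 0.73 ± 0.69, but replicate 2 went the other way and the exact p was 0.5. Cebpb over Cebpz and Cebpa over Cebpd gave 0.26 ± 0.46 and 0.17 ± 0.26 (exact p = 0.5 for each).

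The place of Cebpd depended on the background by which its fragments were divided. At the summit of highest fold, Cebpd had 35, 34 and 38 fragments, more than Cebpa in each library. Its local background was 3.81, 3.799 and 5.0 fragments, or 1.98, 1.88 and 2.47 times the genome-wide background. Cebpa, Cebpb and Cebpe were at the genome-wide background in all 3 libraries. At Cebpz and Cebpg the multiple was the same in replicates 2 and 3, at 1.98 and 1.28. The control is not given, so the backgrounds of the libraries may not be independent of one another. With the −log10 p of the summit in place of fold, the log2 ratio of Cebpa over Cebpd turned from 0.17 to −0.33. Cebpz and Cebpg, also with a raised background, had the most fragments, with means of 61.7 ± 20.0 and 60.7 ± 9.45 (SD, n = 3), and Cebpb over Cebpz changed from 0.26 to −0.12 under the same measure.

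The width of the acetylated promoter followed another order than its height. Summed TSS-proximal peak length was 1703 ± 159 bp (SD, n = 3) at Cebpb, 1502 ± 296 bp at Cebpa and 1497 ± 553 bp at Cebpd. These means were above the 1467 bp of the upper quartile of genes. In replicate 1, however, Cebpa had 1214 bp and Cebpd 938 bp. Cebpg, highest in fold, had 1419 ± 263 bp, Cebpz 1040 ± 204 bp and Cebpe 781 ± 574 bp, beside a median of 1001 bp for genes. At Cebpa, a gene of 2636 bp, peaks covered 46.1%, 68.5% and 46.6% of the gene body. Coverage was 34.9% ± 11.9 (SD, n = 3) at Cebpd, 24.8% ± 21.5 at Cebpe, 8.36% ± 1.61 at Cebpg and 4.603% ± 0.327 at Cebpz, the 2 longest genes.

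At Cebpa, Cebpb, Cebpd, Cebpg and Cebpz, the strongest summit lay downstream of the TSS in each library. Over all summits near the members' 5′ ends, 11 of 14 in replicate 1, 13 of 19 in replicate 2 and 14 of 19 in replicate 3 were downstream, or 78.6%, 68.4% and 73.7%. The shares over all genes were 75.1%, 74.6% and 73.7%, so the members did not stand apart. Cebpz had a gap at its TSS in replicates 2 and 3, with separate peaks on either side of the pair of divergent start sites.

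Cebpe was the exception. In replicate 1 its sole TSS-proximal peak had its summit at −1012 bp from the TSS and covered 0% of the gene. In replicates 2 and 3, peaks covered 36.7% and 37.8% of the gene, with the strongest summits 631 and 217 bp downstream. No single region at the Cebpe TSS was therefore present in all 3 libraries, although each library had a peak within 2.5 kb. With peaks held to a −log10 q of 5 or more, 5 members had a TSS peak in every library, and Cebpe did not.

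**Figure D2:**
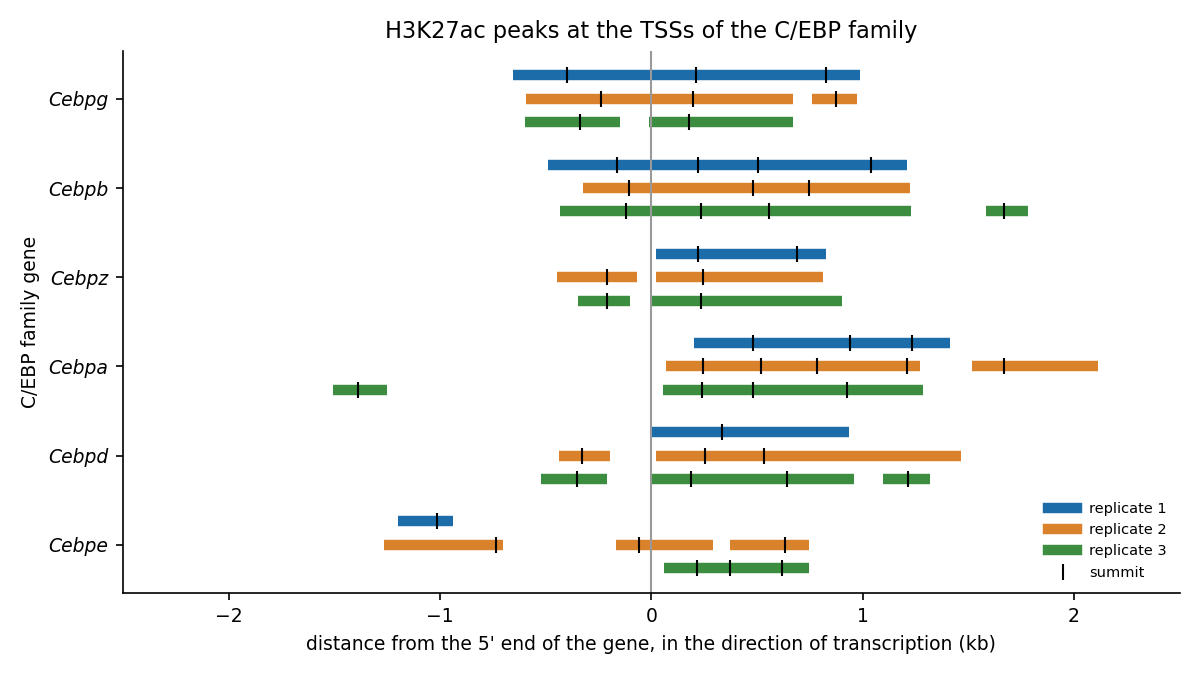
Spans of the H3K27ac peaks within 2.5 kb of the 5′ end of each C/EBP family gene (x axis, distance in kb in the direction of transcription; 0 is the 5′ end), with 1 line per library and a black tick at each summit. The main peaks reach from near 0 into the gene at Cebpz, Cebpa and Cebpd. They start upstream of 0 at Cebpb and, in replicates 1 and 2, at Cebpg. Replicate 1 at Cebpe has only a peak upstream.

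The known distal control region of Cebpa was examined next. The window from +35 to +39 kb of the Cebpa TSS (chr7:35154293-35158293, GRCm38) held 0 peaks in each of the 3 libraries, so the planned ratio of the +37 kb enhancer to the TSS has no value. The peak nearest to the +37 kb point was 29.1 kb away in replicate 1, a distal peak at +7.8 kb with a fold of 3.76 on 10 fragments. In replicate 2 a peak with its summit 32984 bp downstream of the TSS, with a fold of 3.97 on 11 fragments, lay 3.9 kb away, outside the window. In replicate 3 the nearest was the Cebpa TSS peak itself. Beyond the window, the next peaks downstream were at +115.8, +115.3 and +277.1 kb. A summit in that window with fewer fragments than the 8 or 9 of the weakest called peaks would not be listed. More fragments are needed where the local background is raised, and the background of that window is not known here. The result therefore sets no exact limit on the height of the mark there and does not show that it is absent.

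Around Cebpa, 6 regions were found, 2 of them in all 3 libraries. One was the TSS region. The other lay at −38.3 kb (chr7:35080753-35081371), with a fold of 3.11, 3.5 and 4.88 on 11, 13 and 14 fragments, in every library lower than the TSS. It is intergenic, within 2.5 kb of the annotated start of the small RNA gene Gm25033, and lies between Cebpa and Cebpg, within the windows of both. The regions at −1.4 and +1.7 kb and the distal regions at +7.8 kb and near the window were each found in 1 library, with folds between 3.76 and 4.63. In the Cebpg window, the remaining region besides its TSS and the shared one was at +11.7 kb, past the end of the gene and near a Pepd TSS, with a fold of 3.41 in replicate 1 alone. Cebpg had 0 distal regions.

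**Figure D3:**
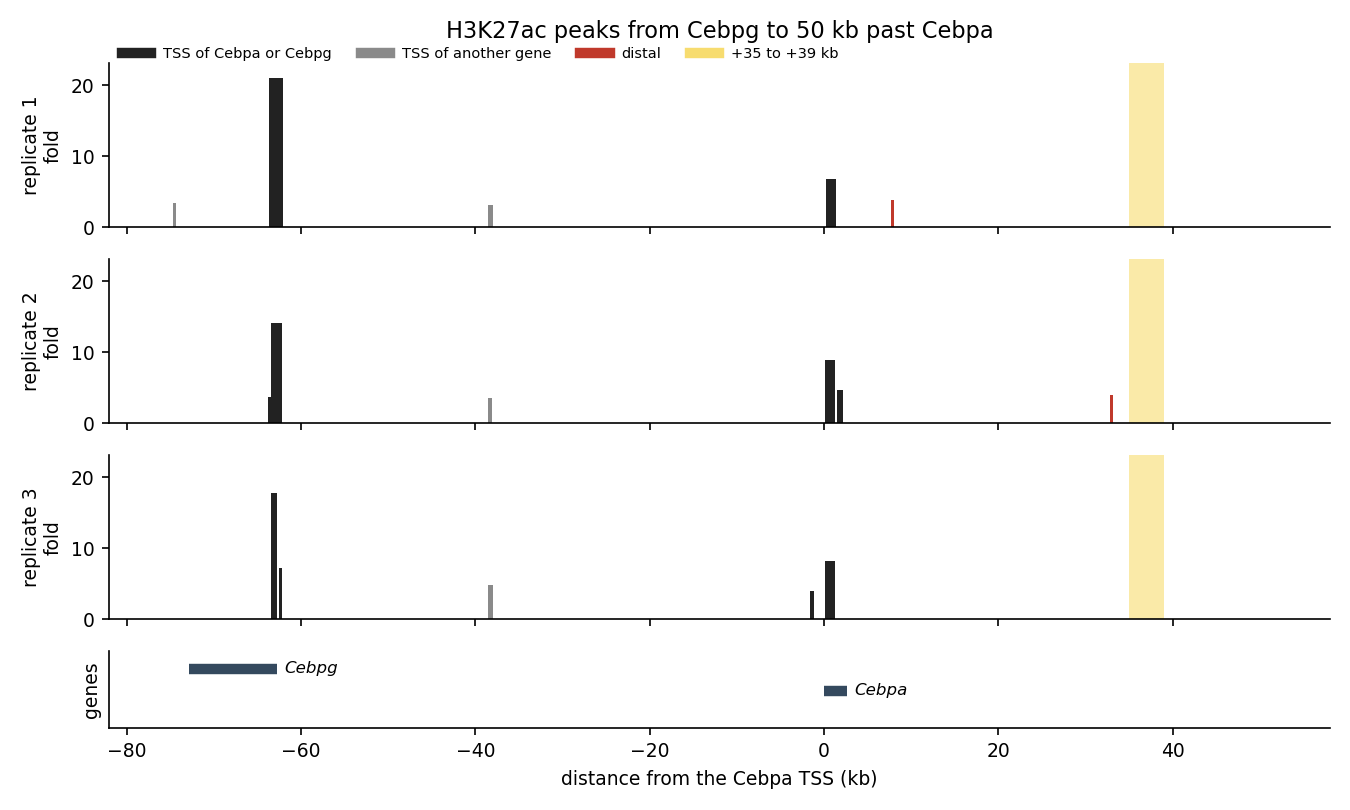
H3K27ac peaks from Cebpg to 50 kb past Cebpa, by distance from the Cebpa TSS (x axis, kb), 1 row per library; bar height is the fold enrichment and bar width the peak. The yellow band marks +35 to +39 kb and holds no peak, while the Cebpg TSS near −62.7 kb is the highest bar in each row.

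Cebpb had the largest set of distal regions in the family. Of 9 distal regions in its window, 5 were found in all 3 libraries. Counted the same way, 13.7% of the 21938 protein-coding genes had at least 1, and 5 put Cebpb at the 99.6th percentile, with ties counted midway. The other 5 members had 0 distal regions in all 3 libraries, and so did 86.3% of genes, so 1 of 6 members is near the background share.

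The strongest distal region lay at −32.0 kb (chr2:167656760-167657032), within an intron of Tmem189 and of the read-through gene Gm20431. Its fold was 7.90, 7.73 and 9.16 (8.26 ± 0.782, SD, n = 3) on 34, 33 and 40 fragments. Its neighbour at −32.4 kb reached 5.17, 4.71 and 7.37 (5.75 ± 1.43), again highest in replicate 3. The window at −32.0 kb printed above contained no match to the motifs, and that at −32.4 kb contained the RUNX match.

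On the other side, 3 regions lay in the intron of A530013C23Rik, the non-coding gene that starts just past Cebpb. The region at +9.4 kb (chr2:167697933-167698602) had a fold of 6.22, 5.75 and 5.15 (5.71 ± 0.535, SD, n = 3). That at +12.6 kb (chr2:167700950-167702480) had 5.46, 6.28 and 4.56 (5.43 ± 0.865). Unlike at the TSS, replicate 3 was the lowest of the libraries at both. The weakest, at +21.5 kb, had 3.41, 2.60 and 3.58 (3.20 ± 0.524) on 9, 12 and 10 fragments, close to the smallest numbers called. In each library, all 5 distal regions were below the Cebpb TSS fold. The nearest annotated TSS was that of Gm20431 for the upstream regions and that of A530013C23Rik for the downstream ones. Which gene these regions act on was not tested.

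Peaks at other start sites in the Cebpb window were about as strong. Upstream, the region at −27.6 kb (chr2:167660830-167661567), near the start sites of Gm20431, of Gm14320 and of a second Tmem189 transcript, had 8.02, 8.70 and 10.4 (9.06 ± 1.25), the second highest mean of the locus. Beside it, the region at −27.0 kb had 5.49, 4.71 and 6.76. The remaining 4 distal regions, at −31.6, −30.7, +22.0 and +23.7 kb, were found in 1 or 2 libraries with mean folds from 3.69 to 4.63, as were 3 TSS-proximal regions at −46.8, −29.5 and +1.7 kb, with folds of 3.07, 4.23 and 4.34. A stricter threshold on the peaks (−log10 q of at least 5) and a TSS window of 5 kb each gave 3 distal regions in all 3 libraries in place of 5.

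**Figure D4:**
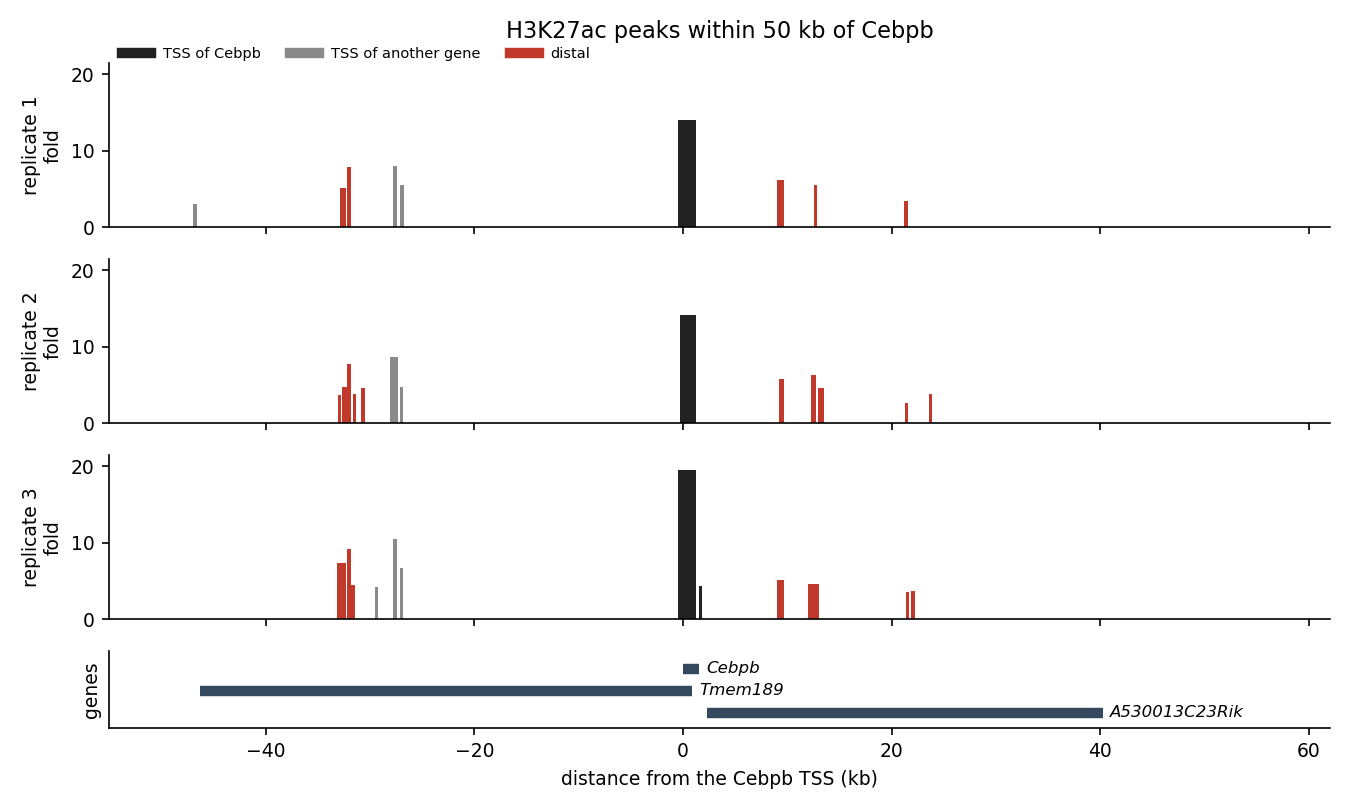
H3K27ac peaks within 50 kb of Cebpb, by distance from its TSS (x axis, kb), 1 row per library; bar height is the fold enrichment, red bars are distal peaks and grey bars lie at the TSS of another gene. Distal bars recur near −32 kb and at +9.4, +12.6 and +21.5 kb in all 3 rows and stay below the Cebpb TSS, at 14.0, 14.2 and 19.5.

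Cebpe had 4 distal regions, each found in replicates 2 and 3 and not called in replicate 1. Those at +5.8 and +5.2 kb, past the 3′ end of the gene, had folds of 4.0 and 3.69 and of 2.75 and 4.43. Those at −42.7 and −44.6 kb, in an intron of the amino acid transporter gene Slc7a8, had 4.96 and 5.20 and 4.96 and 4.23. Without replicate 1, the count of the family's distal regions found in every library rose from 5 to 10, of which 4 were at Cebpe. The strongest regions of the Cebpe window were at the start sites of Acin1 and 1700123O20Rik, +25.7 kb away, with folds of 14.9, 16.2 and 16.2, and 24969 bp away, with 5.38, 6.60 and 8.65. Both were present in replicate 1, where the Cebpe regions were weak or not called.

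Cebpd and Cebpz had 0 distal regions. In the Cebpd window, the highest fold was at the TSS of Mzt2, at −24.2 kb, with 8.29, 5.83 and 9.83, above Cebpd itself in replicates 1 and 3. A second region at −23.6 kb belonged to the same start site, with folds of 8.29, 4.601 and 6.15. At Cebpd itself, regions at −0.3 kb (in 2 libraries, with folds of 3.14 and 4.92) and at +3.3 kb (in replicate 2, with 3.99) flanked the TSS region, the latter near a second annotated start of the gene. In the Cebpz window, the start sites of Eif2ak2, at +54.7 kb, and of Cebpzos, at +20.5 kb, had 9.90, 6.28 and 9.10 and 6.92, 5.23 and 6.96, in each library below the shared Cebpz and Ndufaf7 promoter. The region on the Ndufaf7 side, at −0.2 kb, had 5.23 and 5.14 in replicates 2 and 3.

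Over the 6 windows, 19 of 40 regions (47.5%, Wilson 95% interval 32.9% to 62.5%) were found in all 3 libraries, an interval that includes the 41.3% of all regions. With peaks counted as shared only at a reciprocal overlap of 50%, 13 regions and 23.2% were found in all 3. Of 25 TSS-proximal regions 14 (56.0%, 37.1% to 73.3%) were in all 3, beside 59.6% of all TSS-proximal regions. For distal regions the numbers were 5 of 15 (33.3%, 15.2% to 58.3%) and 16.7%, and the 5 all lie in the Cebpb window. Regions of 1 window share a locus and are not independent, and these intervals cover counting error only.

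Within the windows, the median fold of TSS-proximal peaks exceeded that of distal peaks in each library. The medians were 7.48 and 5.31 in replicate 1, 5.53 and 4.63 in replicate 2, and 6.58 and 4.43 in replicate 3. Their ratios were 1.41, 1.19 and 1.49, a mean of 1.36 ± 0.151 (SD, n = 3), and the exact two-sided sign-flip test gave its smallest possible p of 0.25. They rest on 17, 22 and 24 TSS-proximal and 6, 15 and 11 distal peaks. Over all peaks the ratio was 1.5, 1.51 and 1.60, higher than in the windows in each library.

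Super-enhancers, stretches of neighbouring peaks with the highest summed signal, were called in each library from peaks joined over short gaps. The calls came to 1383, 1083 and 1190 for replicates 1 to 3. Cebpb lay in one in 3 of 3 libraries, at rank 761 of 11779 joined regions in replicate 1, 676 of 12327 in replicate 2 and 558 of 11525 in replicate 3. These joined 4, 6 and 6 peaks over 22.0, 24.1 and 22.7 kb, from the Cebpb TSS to the region at +21.5 kb or beyond. Cebpg was assigned one in replicate 1 only (rank 537), where its TSS peak was joined to the peak at +11.7 kb, and Cebpa, Cebpd, Cebpe and Cebpz in 0 libraries. So 1 of 6 members had a super-enhancer in at least 2 libraries, against 17.1% of the 10281 genes with a TSS-proximal peak in at least 2. The Cebpb call was made in 0 libraries when TSS-proximal peaks were left out before joining, and in 0 when each joined region was given to the closest protein-coding TSS from its middle. The paper, which ranked by tag counts, reports far fewer super-enhancers than were called here. It lists Cebpb as a differentially expressed transcription factor, but not among those of them with a super-enhancer. The Cebpb call therefore holds only for the method used here.

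For each member, the 3 most similar protein-coding genes were taken as those with the smallest distance in percentile rank of mean TSS fold, TSS peak length and number of distal regions, over 9637 genes and 3 libraries. Cebpb was closest to Wasf2, an actin regulator, with a mean TSS fold of 16.0, a TSS peak length of 1646 bp and 3 distal regions, and then to Kctd20 and Fbxo45. No gene was as near to Cebpb as the nearest genes were to the other members, with a distance of 2.67 percentile points beside 0 to 1.58. Most genes had 0 distal regions, as had the other members, so this contrast partly follows from the count of distal regions. Psd3 and Sirt3 were among the genes closest to Cebpa, while Cebpd was closest to Actn4, Cyren and Mfsd10, and Cebpg to Pigg, Pnp and Dnajc5. The nearest to Cebpz was Ndufaf7, with which it shares the promoter, followed by Ppp4c and Fam160b2. For Cebpe the 3 nearest, Txndc17, 4933427D14Rik and Gm43951, had the same values as one another (5.20 in fold and 779 bp).

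The partners, regulators and targets of the C/EBP proteins were set beside the family. All 6 bZIP partners and relatives had a TSS-proximal peak in every library, with a median TSS fold of 10.1. Atf4, a stress-response factor and partner of C/EBPγ, had 32.7, 25.3 and 40.1, in each library above every C/EBP gene, and Ddit3, an inhibitory partner also called CHOP, had 14.0, 15.3 and 18.9. Hlf, a stem cell factor, was lowest with 4.78, 5.50 and 4.18. Of 8 regulators, 7 had a peak in every library. Spi1, which encodes PU.1, had 8.005, 7.25 and 9.62, a range that overlaps that of Cebpa, and Fbxw7, a ubiquitin ligase subunit, had 17.0, 16.9 and 21.2. Between the Tribbles genes, whose products direct C/EBPα to degradation, Trib1 had 11.1, 14.0 and 12.6, whereas Trib2 had no TSS peak in any library.

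Target genes were listed by the stage at which they are expressed. Of 9 early targets, which encode growth factor receptors and primary granule proteins, 7 had a TSS-proximal peak in every library, with a median fold of 6.69. The receptor gene Csf2ra had 13.5, 12.1 and 15.4 and the myeloperoxidase gene Mpo 4.97, 7.28 and 7.83, while Elane, the neutrophil elastase gene, had a peak in replicate 3 only (3.34) and Ms4a3 in none. Of 8 late targets, which encode secondary granule and S100 proteins and include Ltf, Lcn2, S100a8 and S100a9, 0 had a peak in every library. Ngp and Fcnb each had one in replicate 2, with folds of 5.29 and 3.31, and the other 6 in none. The background for these counts is the same 43.9% of genes, and the lists were not tested as sets.

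**Figure D5:**
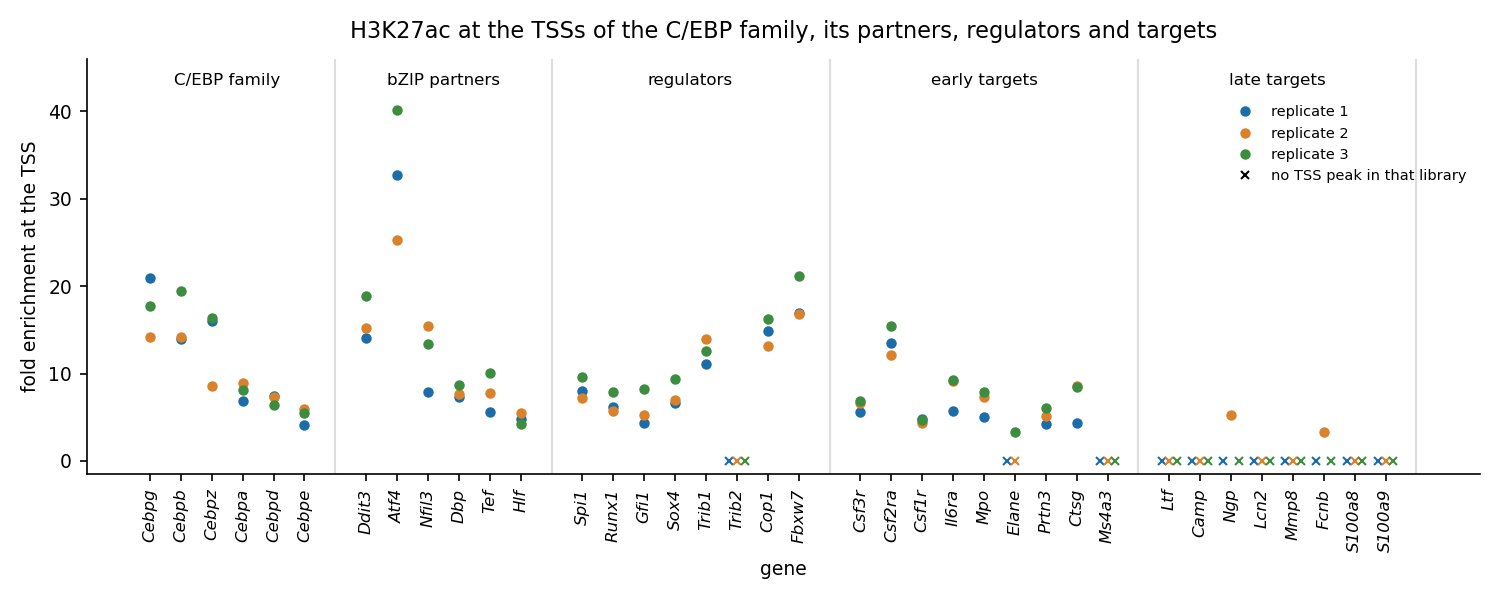
Fold enrichment of H3K27ac at the TSS (y axis, linear) in each library (coloured points) for the C/EBP family genes and for lists of bZIP partners, regulators, early targets and late targets; a cross at 0 marks a library with no TSS-proximal peak. Every C/EBP gene has points for all 3 libraries, Atf4 lies highest, and the late targets have crosses in all but 1 library each of Ngp and Fcnb.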

How the data were processed

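H3K27ac ChIP-seq peak lists of 3 BcorΔE9-10 KL libraries were analysed, and the series' other 19 samples were not analysed here. Per the methods of the study, cells came from 3 BcorΔE9-10 mice. The authors used Bowtie2 for alignment to GRCm38, dropped duplicate reads, and ran MACS2 (2.1.1 in the submitters' processing notes) on each library alone. The control and peak-calling settings are not given in the sources used here. The deposited lists hold, per summit, a fold enrichment, the −log10 of the p-value and of the q-value, and a score, all as the authors gave them. The fold is a ratio of fragments to local background, with the same small constant added to both. The deposited score was not used.

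Where an interval had several rows, the row of highest fold stood for the peak. Fragments and background at each summit were solved from fold and −log10 p, which succeeded for 100% of rows (tolerance 0.001 in −log10 p). Depth follows from the genome-wide background, given 200 bp fragments and the caller's mouse genome size. The solver, merging and overlap steps were tested on simulated data. Without molecular identifiers the fragments may not be independent, and intervals give counting error alone.

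Gene models were GENCODE M21, coordinates are in GRCm38 counted from 1, and distances follow the direction of transcription. Overlap meant at least 1 bp. A peak within 2.5 kb of any TSS was TSS-proximal, and the member's own TSS fold was the highest over all its annotated start sites. Super-enhancers joined peaks within 12.5 kb, ranked by fold times length, past the point of slope 1, and went to protein-coding TSSs inside, otherwise to the closest. The study used HOMER tag counts instead. The genes named are the 6 members, the 5 strongest regions of each, the 3 genes most like each member, except for 1 result that is not reported here, and the lists above. Members, lists and motifs were chosen with earlier results of these data known. Tests were exact sign-flip permutations over libraries. Python 3.11.15, numpy 2.4.6, pandas 2.3.3, scipy 1.17.1 and pysam 0.24.0 were used. Alternatives covered the peak threshold, TSS window, window size, scale, overlap, joining distance and each library left out.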

Additional observations from a re-analysis of the deposited data

How the results depend on the processing

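No paired analysis was possible because a single group, BcorΔE9-10, had H3K27ac libraries in this work. The members with a TSS peak in every library numbered 6 of 6 under the alternatives run, except 5 at a −log10 q of at least 5, and the TSS to distal ratio stayed above 1 in all of them. The median TSS fold of the members, 10.8, became 13.7 at that stricter threshold, where Cebpe dropped out, 2.13 after division by each library's median fold and 34.1 as −log10 p. Neighbouring pairs whose values did not overlap numbered 1, and 0 at the stricter threshold or after that division, 2 as −log10 p, and 1 to 2 with a library left out. Their order reversed for Cebpg over Cebpb without replicate 1 (log2 ratios from −0.071 to 0.29 with a library left out), and for Cebpb over Cebpz (−0.12) and Cebpa over Cebpd (−0.33) as −log10 p. No peak lay at +37 kb of Cebpa in a window of 36 to 38 kb, and 1 library had one in a window of 30 to 45 kb, chosen after seeing the data. Distal regions in every library, 5 in the family, numbered 3 at the stricter threshold, 3 with a 5 kb TSS window, 3 within 25 kb of the genes, and 5 to 10 with a library left out. Regions in all 3 libraries, 19 or 47.5%, numbered 29 (40.8%) within 100 kb, 13 (23.2%) at a reciprocal overlap of 50% and 16 (66.7%) at the stricter threshold, and 27 (71.1%) were in both remaining libraries without replicate 1. Members with a super-enhancer in at least 2 libraries numbered 2 when peaks were joined within 5 kb, and 0 without TSS peaks or by closest TSS only. The cause of these changes was not tested. At 18.0 to 19.3 M reads a summit below 8 fragments is not listed, so weaker marks at these genes cannot be seen.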
